A study of Mus musculus with 6 samples.

Results

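The transporters that move amino acids across the cell membrane were examined after addition of hyaluronan (HA) to HL-1 cells, which are an immortal line of mouse atrial cardiomyocytes. Every probe whose annotated gene symbol starts with Slc1a, Slc3a, Slc6a, Slc7a, Slc36a, Slc38a or Slc43a was taken. The rule itself used no measured value, but the families were chosen with earlier results of these data known. This gave 81 probes of 57 genes, out of 25697 probes and 16593 gene symbols on the array. The families are wider than their usual description. Slc6a2, Slc6a3 and Slc6a4 carry noradrenaline, dopamine and serotonin, Slc6a8 carries creatine, Slc38a9 works on the lysosome, and Slc7a6os is a gene of the strand opposite Slc7a6 and no transporter.

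There were 3 groups of 2 arrays: HL-1 cells given o-HA, which are HA chains of 6 sugars, cells given n-HA, which is HA of 1000 kDa, and untreated cells. The treated cells were incubated with HA for a day. The o-HA was added at a higher dose than the n-HA, so chain length and dose cannot be told apart. Each group occupied its own neighbouring places on a single MouseRef-8 chip, so place and group cannot be told apart either. The labels do not say whether the 2 arrays of a group came from separate cultures, and the p-values therefore measure the spread between these arrays, which may be technical.

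Bead intensity, the mean brightness of the beads that carry a probe, averaged 125.1 and 131.8 on the o-HA arrays, 110.1 and 93.3 on the n-HA arrays, and 140.9 and 121.6 on the untreated arrays. The n-HA replicate 1 array stood apart, with correlations of 0.817 to 0.873 with the other arrays, which correlated at 0.962 to 0.989 with each other. Results are therefore given with and without it. Of 12 cardiomyocyte markers on the array, 8 were detected on all 6 arrays, and Gata4 and Ryr2 were detected on none. No fibroblast marker was detected on all 6 arrays, and 5 of the 6 were detected on none. Of 4 smooth muscle markers, Acta2 (3138.4 to 9588.2) and Tagln were detected on all 6 arrays, and 2 on none. Of 3 leukocyte markers, Cd3e (73.8 to 82.4) was detected on all 6 arrays, and 2 on none. Of 5 endothelial markers, Tek was detected on 5 arrays, and 3 on none. The summed intensity of the cardiomyocyte markers was 9073 and 10275 with o-HA, 15672 and 5521 with n-HA, and 13511 and 9466 in untreated cells. These sums overlapped between the groups, but not every single marker did. Tnnc1, Tbx5, Myh6, Nkx2-5 and Myl7 were dimmer on every treated array than on both untreated arrays. Myl4, Actc1, Nppa and Atp2a2 overlapped between treated and untreated arrays. Over all probes tested, 16.9% were dimmer on both o-HA arrays than on both untreated arrays, and 49.5% were dimmer on both n-HA arrays. In RNA from whole cultures, fewer cells that express a gene and less RNA per cell cannot be told apart.

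Amino acids cannot cross the lipid membrane unaided, and the families differ in what drives uptake. Slc1, Slc6 and Slc38 proteins use the sodium gradient, with chloride as well in Slc6, and concentrate their substrates. Slc36 proteins use protons, Slc43 proteins are uniporters, and most of the Slc7 light chains exchange one amino acid for another and reach the membrane only when bound to a heavy chain such as Slc3a2. In heart muscle the taurine transporter Slc6a6 maintains a very large intracellular pool of taurine, an osmolyte, and glutamine and glutamate feed energy metabolism.

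Promoter sequences of RefSeq (GRCm38.p6, 250 bases before to 50 bases after the transcript start, 5′ to 3′ on the strand of the gene) were matched for 41 of the 57 genes. The promoters of Slc1a3 (chr15:8710758-8711057, minus strand), Slc1a7 (chr4:107968156-107968455, plus strand), Slc6a9 (chr4:117835008-117835307, plus strand, the most upstream of its 3 listed starts) and Slc38a10 (chr11:120151302-120151601, minus strand) are shown because these genes had the lowest p-values with n-HA among the transporters detected on all 6 arrays. Capitals mark the matches on either strand to the motifs searched, which were the core of the amino acid response element (TGATGNAA), the E-box (CACGTG), the GC box (GGGCGG) and the CCAAT box (CCAAT).
Slc1a3: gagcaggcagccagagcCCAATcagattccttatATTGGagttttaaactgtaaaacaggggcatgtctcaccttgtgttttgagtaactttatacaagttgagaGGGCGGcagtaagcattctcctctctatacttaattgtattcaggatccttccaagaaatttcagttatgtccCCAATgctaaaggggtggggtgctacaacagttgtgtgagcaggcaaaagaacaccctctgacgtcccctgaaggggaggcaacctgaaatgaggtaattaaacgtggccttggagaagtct
Slc1a7: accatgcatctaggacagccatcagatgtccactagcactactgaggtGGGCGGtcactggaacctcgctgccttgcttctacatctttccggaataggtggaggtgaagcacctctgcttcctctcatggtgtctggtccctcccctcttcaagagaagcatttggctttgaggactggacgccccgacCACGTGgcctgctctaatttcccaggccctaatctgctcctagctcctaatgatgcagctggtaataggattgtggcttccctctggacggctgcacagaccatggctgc
Slc6a9: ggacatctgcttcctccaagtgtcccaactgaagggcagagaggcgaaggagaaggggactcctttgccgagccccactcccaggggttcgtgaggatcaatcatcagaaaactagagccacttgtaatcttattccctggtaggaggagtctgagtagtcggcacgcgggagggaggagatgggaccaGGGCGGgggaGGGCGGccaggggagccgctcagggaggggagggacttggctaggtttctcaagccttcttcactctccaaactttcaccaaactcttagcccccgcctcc
Slc38a10: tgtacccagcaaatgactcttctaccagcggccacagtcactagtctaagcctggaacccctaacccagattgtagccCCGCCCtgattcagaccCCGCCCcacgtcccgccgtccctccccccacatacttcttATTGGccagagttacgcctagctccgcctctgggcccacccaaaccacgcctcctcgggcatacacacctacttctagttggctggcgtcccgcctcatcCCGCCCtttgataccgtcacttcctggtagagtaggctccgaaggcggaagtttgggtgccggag
Slc1a3 held a GC box 145 bases and CCAAT boxes 233, 216 and 72 bases before the start. Slc1a7 held a GC box 202 bases and an E-box 60 bases before it. Slc6a9 held GC boxes at 61 and 51 bases, and Slc38a10 held GC boxes at 172, 155 and 15 bases and a CCAAT box at 115 bases. All 4 windows shown shared the GC box, and none of them held the response element core, which says only that these letters are not in these windows. The windows at the other listed starts of Slc6a9 held no GC box and no other motif searched. Over the 62 listed promoters of the transporters, the response element core was in 5 (8.06%), the E-box in 7 (11.3%), the GC box in 33 (53.2%) and the CCAAT box in 17 (27.4%). Over all 32851 listed mouse promoters of this length the shares were 3.97%, 7.15%, 35.7% and 37.4%. The matches describe the letters only and are no evidence of binding.

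Few of the transporters were measured above background in HL-1 cells. A probe was called detected on an array when its detection p-value, set against the negative control beads, was under 0.05. On all 6 arrays 7 of the 81 probes were detected (8.64%, against 11.7% of all probes), and on at least 2 arrays 20 probes of 19 genes (24.7%, against 24.1% of all probes). At least 1 array detected 33 of the probes (40.7%, against 33.6% of all probes). Just 1 array detected 13 of these 33, and the remaining 48 probes were detected on none (59.3%, against 66.4% of all probes). The share of transporters with a measurable signal was thus close to that of the whole array, and 28 of the 57 genes were detected on no array. The number of transporter probes detected was 17 and 20 on the o-HA arrays, 15 and 15 on the n-HA arrays, and 16 and 13 on the untreated arrays. The corresponding numbers over all probes were 5504 and 5443 with o-HA, 4767 and 4546 with n-HA, and 5763 and 5449 in untreated cells.

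The probes detected on all 6 arrays belonged to Slc1a3, Slc1a7, Slc6a9, Slc6a14, Slc7a5, Slc38a3 and Slc38a10. Slc6a6, Slc36a1 and a probe of Slc38a2 were detected on 5 arrays, Slc7a2 on 4, and Slc6a4, Slc36a3, Slc38a1 and Slc38a9 on 3. Slc1a4, Slc3a2, Slc7a6os and both probes of Slc43a2 were detected on 2. A single detection was all that was seen of Slc1a2, Slc1a6, Slc6a2, Slc6a7, Slc6a12, Slc6a15, Slc7a6, Slc7a8, Slc7a14 and Slc38a8. The genes detected on no array included the cationic amino acid transporter Slc7a1, the cystine and glutamate exchanger Slc7a11, the neutral amino acid exchanger Slc1a5, the glutamate carrier Slc1a1, and the creatine transporter Slc6a8. The others detected on no array were Slc6a3, Slc6a5, Slc6a11, Slc6a13, Slc6a17, Slc6a19, Slc6a20a, Slc6a20b, Slc6a21, Slc7a3, Slc7a4, Slc7a7, Slc7a9, Slc7a10, Slc7a12, Slc7a13, Slc7a15, Slc36a2, Slc38a4, Slc38a5, Slc38a7, Slc38a11 and Slc43a3. The mean intensity of the 61 probes seen on fewer than 2 arrays was between 52.5 and 68.5, and the dimmest detected probe of an array read between 70.1 and 73.0. A level under that limit was not detectable on these arrays, which does not show that the transcript was absent.

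**Figure D1:**
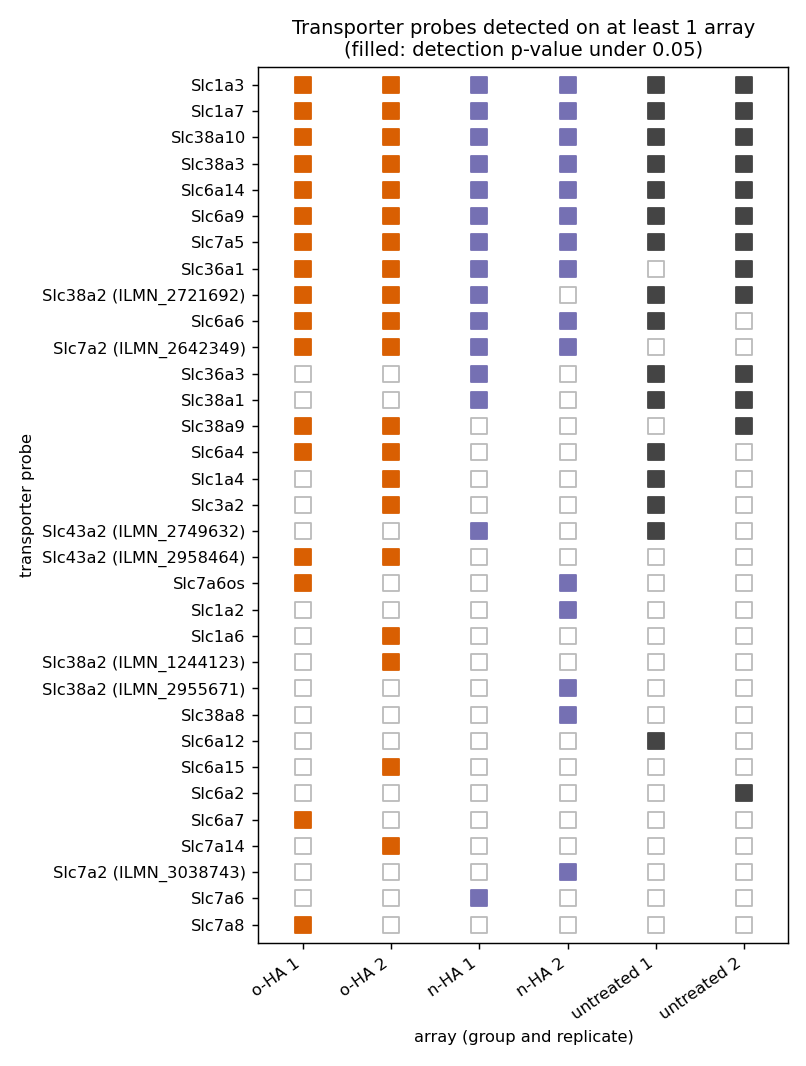
Detection of the 33 transporter probes that were detected on at least 1 of the 6 arrays. Each row is a probe and each column an array, with o-HA left, n-HA in the middle and untreated right, and a filled square stands for a detection p-value under 0.05. The 7 uppermost probes are filled on every array, and the Slc43a2 probe ILMN_2958464 is filled only on the o-HA arrays.

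By family, detection on at least 2 arrays was reached by 3 of the 7 Slc1a genes, by Slc3a2, by 4 of the 18 Slc6a genes, by 3 of the 16 Slc7a genes, by 2 of the 3 Slc36a genes, by 5 of the 10 Slc38a genes and by 1 of the 2 Slc43a genes. Of the 16 genes with more than 1 probe, 4 had a probe that reached it, and in Slc43a2 alone every probe did. In Slc7a2 the tested probe was detected on 4 arrays, and its other probes on 1 and 0. In Slc38a2 the tested probe was detected on 5 arrays and its other probes on 1 each, and in Slc38a9 the probes were detected on 3, 0 and 0 arrays. The values of Slc7a2, Slc38a2 and Slc38a9 thus rest on a single probe each.

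The question whether short HA chains changed the transporters was addressed by comparing o-HA with untreated cells. The taurine transporter Slc6a6 showed the largest difference and was higher on both o-HA arrays. With all 6 arrays no transporter passed the threshold in the limma fit (adjusted p under 0.05, Benjamini-Hochberg over the 6194 probes tested), and no other probe did (0% of all probes). An unadjusted p under 0.05 was reached by 0 of 20 transporter probes, against 1.26% of all probes tested. Without n-HA replicate 1, which enters this comparison only through the common estimate of spread, the normalization and the choice of probes, Slc6a6 rose and was the only one of 19 transporter probes to pass, against 0.407% of all probes.

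Slc6a6 (ILMN_2641467, chromosome 6) had bead intensities of 103.6 and 115.1 with o-HA, against 85.4 and 70.8 in untreated cells. The o-HA and untreated arrays did not overlap, and the probe was not detected on untreated replicate 2. After background correction and normalization its level on the log2 scale was 5.73 and 5.85 with o-HA, and 5.07 and 4.73 in untreated cells. The log2 fold change was 0.89 with a standard error (SE) of 0.55 and an adjusted p of 1 in limma. When n-HA replicate 1 was left out it was 0.93 with an SE of 0.18, a 95% interval from 0.54 to 1.33 and an adjusted p of 0.0439. Without n-HA replicate 2 it was 0.95, with an adjusted p of 0.0453, against 0.403% of all probes past the threshold. Leaving out an n-HA array thus hardly moved the size of the difference, while its SE and its call changed. The ratio of its mean bead intensities was 1.4. With all 6 arrays the log2 fold change was 0.41 without background correction and 0.48 with an offset of 50, so its size depended on the background correction. With arrays left unnormalized and n-HA replicate 1 left out it was 0.97, with an adjusted p of 0.258. Cardiomyocyte markers moved in the fit in which Slc6a6 passed without n-HA replicate 1, where 2 of the 9 tested were higher and 7 lower with o-HA (median -0.44), and 2 of the 7 passed. These were troponin C, Tnnc1 (-1.20, adjusted p of 0.0188), and the transcription factor Tbx5 (-1.05, adjusted p of 0.0258). Tnnc1 read 1196.8 and 1362.2 with o-HA, against 3340.0 and 2859.6 in untreated cells, with no overlap. The part of these markers in the Slc6a6 difference was not tested.

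The next largest differences with o-HA were small and lay in probes near background. Slc7a2 (ILMN_2642349), a carrier of arginine, lysine and ornithine, read 79.4 and 78.3 with o-HA, against 68.6 and 67.3 in untreated cells, where it was not detected. Its log2 fold change was 0.40 with an SE of 0.21, and the ratio of its mean bead intensities, which still hold background light, was 1.16. Slc43a2 (ILMN_2958464), a uniporter of leucine, phenylalanine and other large neutral amino acids, read 76.1 and 78.3 with o-HA, against 65.8 and 66.9 in untreated cells. It was detected with o-HA only, with a log2 fold change of 0.38, an SE of 0.20 and a ratio of mean bead intensities of 1.16. The other Slc43a2 probe (ILMN_2749632) gave -0.14 with an SE of 0.25, so the 2 probes of this gene differed in direction. Where a probe was not detected in a group its level there is only known to be low, and the size of the fold change depends on the background correction and the normalization.

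Slc38a1, a glutamine carrier, read 63.2 and 72.3 with o-HA, where it was not detected, against 85.6 and 71.3 in untreated cells. Its log2 fold change was -0.34 with an SE of 0.31. Before normalization its o-HA and untreated arrays overlapped. Slc7a5, the light chain of the leucine exchanger LAT1, read 118.3 and 110.9 with o-HA and 116.2 and 85.8 in untreated cells, with a log2 fold change of 0.36 and an SE of 0.53. The other transporters detected on all 6 arrays lay between -0.22 for Slc6a9 and 0.20 for Slc1a3, with -0.01 for Slc38a10, 0.01 for Slc38a3, 0.04 for Slc6a14 and 0.18 for Slc1a7. None of these differences exceeded its SE. Over the 20 probes the log2 fold change ranged between -0.34 and 0.89 with a median of 0.05, against a median of 0.00 over all probes tested. After normalization the arrays of the groups did not overlap for 7 probes that were higher (21.7% of all probes) and 3 that were lower with o-HA (22.0% of all probes). Before normalization there were 5 such probes that were brighter with o-HA (12.6% of all probes), of Slc6a6, Slc7a2, Slc36a1, Slc38a9 and Slc43a2, and 2 that were dimmer (16.9% of all probes), of Slc6a9 and Slc36a3.

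**Figure D2:**
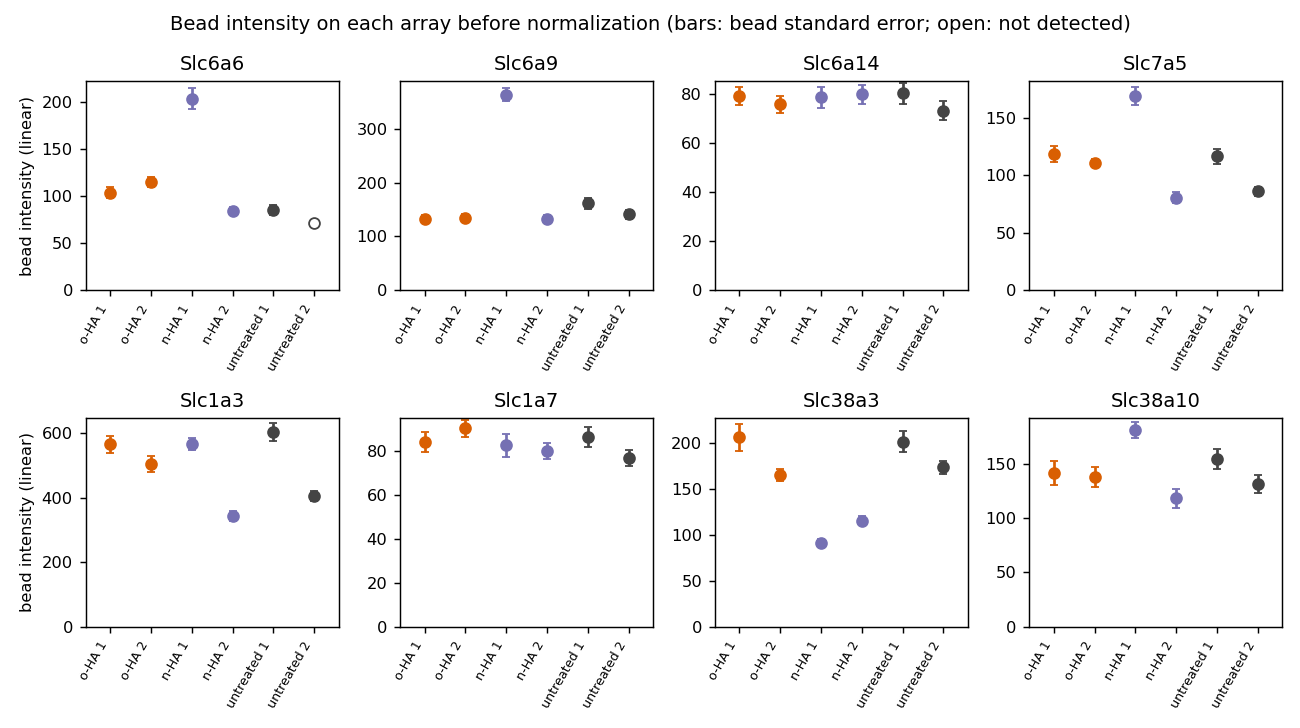
Bead intensity (linear scale, before normalization) of the taurine transporter Slc6a6 and of the 7 transporter probes detected on all 6 arrays, with o-HA left, n-HA in the middle and untreated right. Points are single arrays, bars are the standard error over beads, and the open point was not detected. Slc6a6 read 103.6 and 115.1 with o-HA, above both untreated arrays, and the n-HA arrays of Slc6a6, Slc6a9 and Slc7a5 lay far apart from each other.

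The comparison of n-HA with untreated cells asked the same question for long chains. After normalization Slc6a6, the glycine transporter Slc6a9, Slc38a10, Slc1a3, Slc1a7 and Slc7a2 were higher with n-HA at an unadjusted p under 0.05. These were 6 of 20 probes, with 0 lower, against 9.32% of all probes higher and 12.5% lower. With all 6 arrays no transporter passed the threshold in limma, nor did another probe (0% of all probes), and the lowest adjusted p of a transporter was 0.176. Before normalization only Slc7a2 was brighter on both n-HA arrays than on both untreated arrays (2.97% of all probes), and Slc1a4, Slc36a3, Slc38a2 and Slc38a3 were dimmer (49.5% of all probes). After normalization the groups did not overlap for 9 probes that were higher (23.8%) and 2 that were lower (30.5%). Only Slc7a2, Slc1a4 and Slc38a2 stood apart on both scales, and the n-HA arrays had the lowest mean intensity of the chip.

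Slc6a6 read 203.5 and 83.8 on the n-HA arrays, against 85.4 and 70.8 in untreated cells. Before normalization n-HA replicate 2 lay between the untreated arrays, and n-HA replicate 1 lay far above all other arrays. On the log2 scale the normalized levels were 7.72 and 5.97 with n-HA and 5.07 and 4.73 in untreated cells, a log2 fold change of 1.95 with an SE of 0.55 and an adjusted p of 0.176. When n-HA replicate 1 was left out it was 1.12 with an SE of 0.23 and an adjusted p of 0.00584, a test in which the single n-HA array is assumed to vary as the other groups do. With n-HA replicate 1 left out and no normalization between arrays it was 0.27, with an adjusted p of 0.579. Without n-HA replicate 2 it was 2.92, so the size rested on which n-HA array was kept. The median over all probes in the setting without n-HA replicate 1 and normalization was -0.63, and Slc6a6 lay above the median of all probes in each of these settings.

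Slc6a9 (ILMN_2667384), also called GlyT1, read 365.0 and 132.2 with n-HA, against 162.3 and 141.1 in untreated cells. Before normalization the n-HA arrays lay on either side of the untreated ones. The log2 fold change of Slc6a9 was 1.56 with an SE of 0.44 and an adjusted p of 0.176, and without n-HA replicate 1 it rose by 0.88 with an adjusted p of 0.0149. Without both that array and normalization its log2 fold change was -0.28, where the median of all probes was -0.63.

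Slc38a10 (ILMN_2729743), a member of the sodium-coupled neutral amino acid transporter family, read 181.2 and 118.3 with n-HA, against 154.3 and 131.4 in untreated cells. The log2 fold change of Slc38a10 was 0.96 with an SE of 0.25 and an adjusted p of 0.176. It was 0.72 without n-HA replicate 1, and -0.40 without that array and normalization, where the median of all probes was -0.63. The n-HA arrays of this probe, too, lay on either side of both untreated arrays before normalization.

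Slc1a3 (ILMN_2634317), a glutamate and aspartate transporter, was the probe with the highest intensity among the transporters, at 565.1 and 504.9 with o-HA, 566.8 and 342.2 with n-HA, and 603.8 and 405.3 in untreated cells. With n-HA its log2 fold change was 0.70 with an SE of 0.23 and an adjusted p of 0.183 after normalization, and -0.19 with no normalization between the 6 arrays. The sign thus turned with the scaling, and the median of all probes with no normalization was -0.35. Without n-HA replicate 1 the log2 fold change of Slc1a3 was 0.59. Without that array and normalization it was -0.59, where the median of all probes was -0.63. Slc1a7 (ILMN_2707789), a retinal glutamate transporter, read 84.1 and 90.2 with o-HA, 82.5 and 80.0 with n-HA, and 86.4 and 76.8 in untreated cells, with both n-HA values between the untreated ones. With n-HA its log2 fold change was 0.56 with an SE of 0.21 and an adjusted p of 0.208, and without n-HA replicate 1 it was 0.72 with an adjusted p of 0.0319. With no normalization it was -0.01.

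Slc6a14 (ILMN_1248270), a carrier of neutral and cationic amino acids, read 79.2 and 75.8 with o-HA, 78.6 and 79.9 with n-HA, and 80.2 and 73.2 in untreated cells. Both n-HA values lay between the untreated ones, the whole range over the 6 arrays was 7.0, and the bead SE of this probe was 3.53 to 4.32. After normalization its log2 fold change with n-HA was 0.60 with an SE of 0.25 and an adjusted p of 0.231, and without n-HA replicate 1 it was 0.88 with an adjusted p of 0.0144. With no normalization it was 0.10, and the ratio of mean bead intensities was 1.03.

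Slc7a2 was the transporter whose bead intensities were higher with n-HA as well, at 75.9 and 74.2, against 68.6 and 67.3 in untreated cells. Its log2 fold change was 0.58 with an SE of 0.21 and an adjusted p of 0.197, while the ratio of its mean bead intensities was 1.11. It was 0.70 without n-HA replicate 1, with an adjusted p of 0.0349, and 0.28 when that array was left out and the rest were not normalized. The o-HA and n-HA comparisons share the untreated arrays, on which this probe was not detected.

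Slc38a3 (ILMN_2750089), a glutamine, histidine and asparagine transporter, read 206.6 and 165.4 with o-HA, 91.8 and 115.8 with n-HA, and 201.8 and 173.8 in untreated cells. Both n-HA arrays lay far below the other 4. After normalization its log2 fold change with n-HA was -0.41 with an SE of 0.40 and an adjusted p of 0.538. With no normalization between arrays it fell by 1.32 on the log2 scale, with an adjusted p of 0.0254, where the median of all probes was -0.35 and 23.8% of all probes passed as lower. The normalized value without n-HA replicate 1 was 0.11, and without n-HA replicate 2 it was -0.96, with an adjusted p of 0.00506, in a fit where 54.1% of all probes passed in this comparison. The size and sign of the Slc38a3 difference thus rested on n-HA replicate 1 once arrays were normalized.

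Slc7a5 read 168.8 and 80.4 with n-HA, against 116.2 and 85.8 in untreated cells. Before normalization its n-HA arrays lay above and below the untreated ones, and after normalization both lay above them. The log2 fold change was 1.04 with an SE of 0.53 and an adjusted p of 0.286, and without n-HA replicate 1 it was 0.22. Slc36a1, a proton-coupled carrier of small amino acids such as glycine and proline, read 80.9 and 89.5 with o-HA, 101.1 and 73.0 with n-HA, and 72.8 and 80.3 in untreated cells. The log2 fold change of Slc36a1 was 0.75 with an SE of 0.41, or 0.19 when n-HA replicate 1 was left out. Before normalization, of the n-HA arrays only replicate 1 lay above both untreated arrays for Slc7a5 and Slc36a1. When n-HA replicate 2 was left out, their log2 fold changes with n-HA were 1.91 and 1.40.

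**Figure D3:**
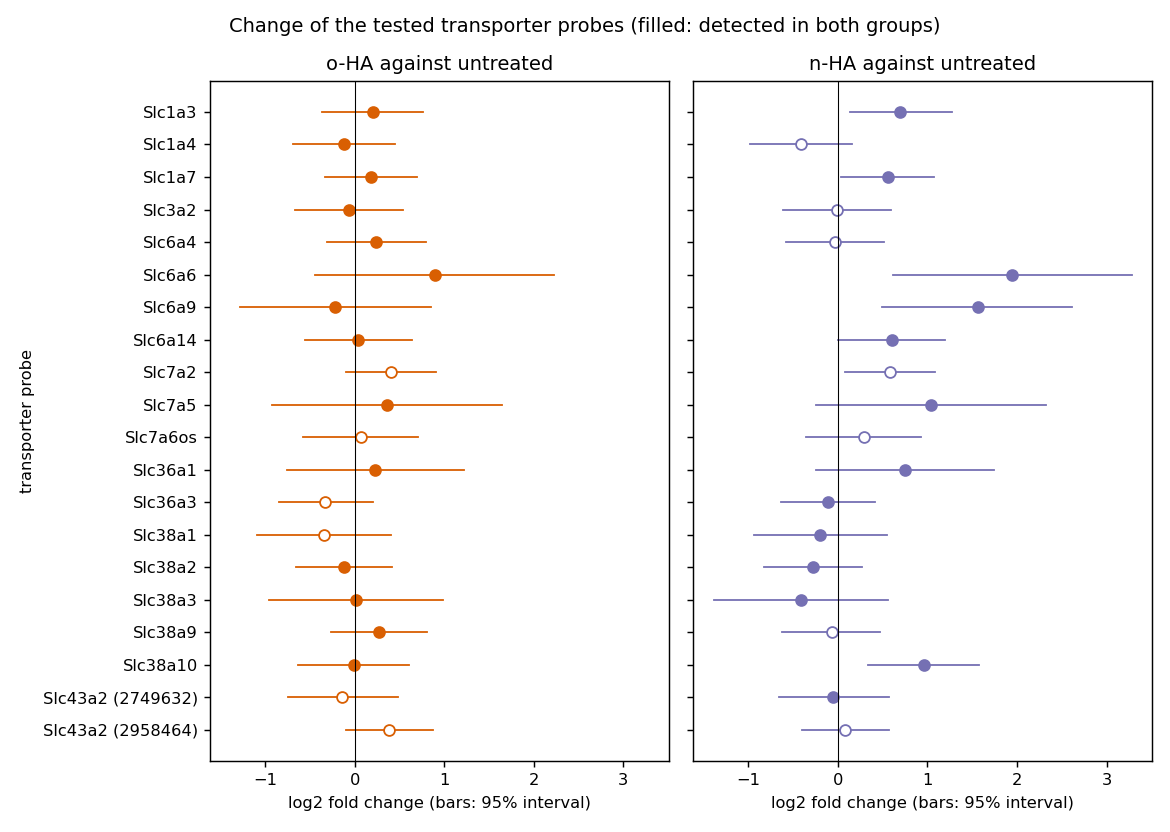
Log2 fold change of the 20 tested transporter probes, o-HA against untreated (left) and n-HA against untreated (right), with all 6 arrays after normalization. Points are limma estimates, bars are 95% intervals, and open points mark probes not detected in at least 1 of the groups compared. Slc6a6 is highest in both panels, at 0.89 and 1.95, and its intervals are among the widest.

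The remaining tested probes were dim, and none of them passed in either comparison, with all 6 arrays or without n-HA replicate 1. Slc1a4, a neutral amino acid exchanger, read 69.1 and 76.4 with o-HA, 65.9 and 59.6 with n-HA, and 83.8 and 69.7 in untreated cells, and its log2 fold change was -0.12 with o-HA and -0.41 with n-HA (-0.49 without n-HA replicate 1). Slc3a2, the heavy chain that partners Slc7a5, read 59.0 and 74.3 with o-HA, 70.6 and 64.0 with n-HA, and 73.0 and 66.1 in untreated cells, and gave -0.07 with o-HA and -0.01 with n-HA (-0.11 without n-HA replicate 1). The amino acid-responsive glutamine carrier Slc38a2 (ILMN_2721692) read 77.2 and 76.3 with o-HA, 73.2 and 65.8 with n-HA, and 87.4 and 74.6 in untreated cells, and gave -0.12 with o-HA and -0.28 with n-HA (-0.44 without n-HA replicate 1). None of these 3 had an unadjusted p under 0.05 in either fit. Slc38a1 read 75.9 and 59.0 with n-HA, against 85.6 and 71.3 in untreated cells, and gave -0.20. Its difference with n-HA was -0.56 without n-HA replicate 1 (adjusted p of 0.106) and 0.16 without n-HA replicate 2, so its sign rested on which n-HA array was kept. Slc43a2 (ILMN_2958464) read 69.0 and 65.7 with n-HA, undetected as in untreated cells. For Slc6a4, Slc7a6os, Slc36a3, Slc38a9 and the Slc43a2 probe ILMN_2749632 the log2 fold changes lay between -0.33 and 0.29 in both comparisons with all 6 arrays. Without n-HA replicate 1, Slc7a6os gave 0.60 with n-HA (adjusted p of 0.0724), or 0.17 with no normalization as well, and the Slc43a2 probe ILMN_2749632 was no longer tested. Slc38a9, which signals lysosomal arginine, read 78.4 and 77.0 with o-HA, 67.2 and 66.4 with n-HA, and 66.1 and 73.1 in untreated cells, and was brighter on both o-HA arrays than on the other 4.

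Over the 20 transporter probes the median log2 fold change with n-HA was 0.19, against -0.01 over all probes tested. With no normalization between arrays it was -0.06, against -0.35 over all probes. The median mean intensity of the tested transporters was 74.8, against 88.3 for all tested probes, and the part of this dimness in the medians was not tested. Without n-HA replicate 1, 6 of 19 probes rose with n-HA and 0 fell, against 7.36% of all probes higher and 9.77% lower. Without normalization as well, none of the 6 probes that rose passed, and only Slc38a3 did, at -1.0 with an adjusted p of 0.0148. In that setting the median of all probes was -0.63, 0% of all probes passed as higher and 39.1% as lower, so the loss of the 6 calls was shared with every probe that had passed as higher.

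**Figure D4:**
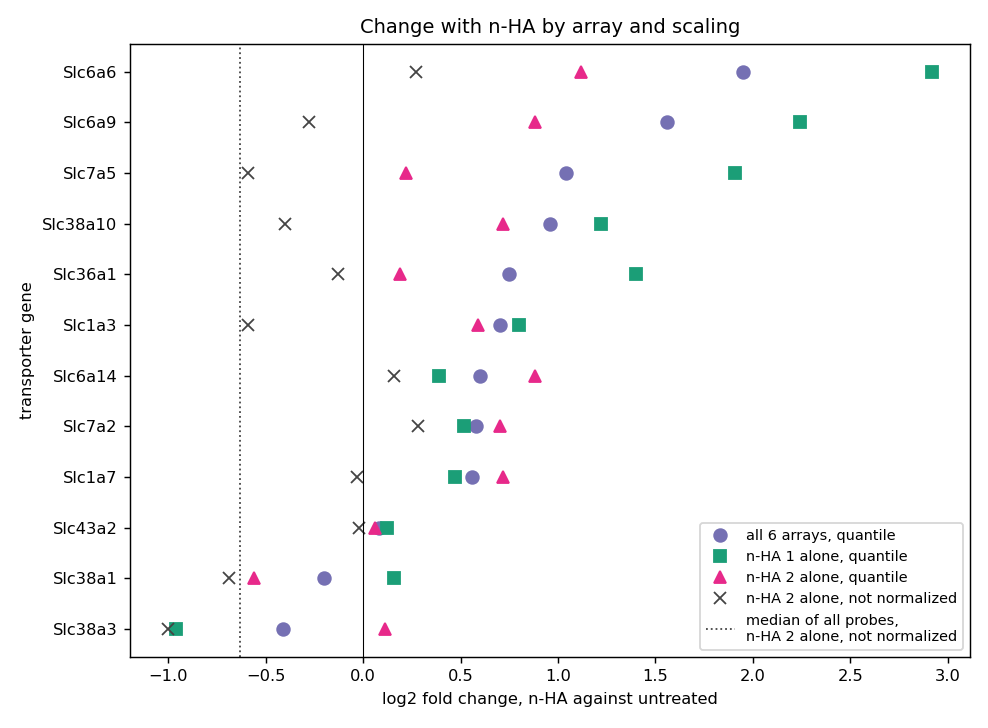
Log2 fold change of 12 transporter probes, n-HA against untreated, with all 6 arrays, with either n-HA array alone after quantile normalization, and with n-HA replicate 2 alone and no normalization between arrays. The solid line is 0 and the dotted line the median of all probes in the last setting, -0.63. Slc6a6 spans 0.27 to 2.92, and without normalization Slc6a6, Slc7a2 and Slc6a14 alone lie above 0.

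The o-HA and n-HA arrays were also compared directly, at doses that differed. No transporter passed in limma with all 6 arrays, nor did another probe (0% of all probes). An unadjusted p under 0.05 was reached by 2 of 20 probes, Slc6a9 and Slc38a10, both lower with o-HA, against 5.36% of all probes lower. Slc6a9 read 132.3 and 135.3 with o-HA, against 365.0 and 132.2 with n-HA, and its log2 fold change was -1.77 with an SE of 0.44 and an adjusted p of 0.325. Slc38a10 read 141.9 and 137.7 with o-HA, against 181.2 and 118.3 with n-HA, and gave -0.97 with an SE of 0.25 and an adjusted p of 0.325. Before normalization no transporter was dimmer on both o-HA arrays than on both n-HA arrays (2.99% of all probes), and 8 were brighter (52.6% of all probes), among them Slc38a3, Slc1a7 and Slc7a2. After normalization the groups did not overlap for 8 probes that were lower with o-HA (21.0% of all probes) and 4 that were higher (27.0%). Slc1a7 and Slc7a2 were among the lower probes, so their direction turned with the scaling.

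Without n-HA replicate 1, Slc6a9 and Slc6a14 were lower with o-HA than with n-HA, at -1.10 (adjusted p of 0.00867) and -0.84 (adjusted p of 0.0276), against 3.51% of all probes lower. With normalization left out as well, Slc6a9 gave 0.01 and Slc6a14 -0.14, and neither passed. For Slc6a6 the o-HA minus n-HA difference was -1.06, with a 95% interval from -2.39 to 0.27 and an adjusted p of 0.382, and -0.19 without n-HA replicate 1. Without n-HA replicate 2 it was -1.97 with an adjusted p of 6.75e-06, against 51.1% of all probes past the threshold, and with neither n-HA replicate 1 nor normalization it was 0.70 (adjusted p of 0.0938). The Slc6a6 difference between the chain lengths thus depended on which n-HA array was kept and on the scaling, and the interval over all 6 arrays does not show that they act alike. Over the 20 probes the median was -0.20, against 0.01 over all probes tested.

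Genes around the transporters were counted in lists. Of the genes of the integrated stress response to amino acid shortage (the GCN2-ATF4 response), 11 were tested. Of these 0 passed in either comparison with untreated cells, 6 were higher and 5 lower with o-HA (median log2 fold change 0.01), and 4 were higher and 7 lower with n-HA (median -0.11). Atf4, its central transcription factor, gave -0.29 with o-HA and -0.09 with n-HA, and Asns, the asparagine synthetase it induces, gave -0.06 and 0.08. Of the mTORC1 and amino acid sensing genes 18 were tested, 0 passed, and 15 were higher and 3 lower with o-HA (median 0.10, against 50.3% of all probes higher). With n-HA 11 were higher and 7 lower (median 0.15, against 49.3% of all probes higher). The lists of transporter partners (3 tested), other amino acid and peptide carriers (5), glutathione, taurine and creatine synthesis (7) and the osmotic response (5) also had 0 past the threshold in each comparison. With all 6 arrays 0% of all probes passed, so a count of 0 does not set any of these lists apart. Among the partners, the HA receptor Cd44 gave -0.12 with o-HA and -0.23 with n-HA, with an SE of 0.31.

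Without n-HA replicate 1 none of these lists had a gene past the threshold with o-HA. With n-HA in that fit, 3 of 17 sensing genes passed, against 17.1% of all probes. These were the arginine sensor Castor1 (1.23, adjusted p of 0.00388) and the GATOR2 subunit Wdr59 (0.75, adjusted p of 0.0265), which rose, and the sestrin Sesn1 (-0.73, adjusted p of 0.0304), which fell. In the ATF4 list 3 of 11 were higher and 8 lower (median -0.28), with Trib3 (-0.81) and Vldlr (-1.08) among the lower. In the osmotic list the heat shock gene Hspa1a rose (0.89, adjusted p of 0.0133), and Lrrc8a, a subunit of the volume-regulated anion channel that also passes taurine, fell (-0.71, adjusted p of 0.0336). With no normalization as well, Trib3 gave -1.76, Vldlr -1.29, Lrrc8a -1.58 and Sesn1 -0.80. Castor1, Wdr59 and Hspa1a gave 0.05, 0.12 and 0.10 there. The median of all probes in that setting was -0.63, with 39.1% of all probes lower past the threshold and 0% higher, so a fall was common there and a pass as higher was seen for no probe. The 7 genes were picked because they passed the threshold on the same arrays, so the second scaling is no independent check. The values of Castor1, Wdr59 and Hspa1a were small there, so their kept sign says little. Of the 9 cardiomyocyte markers tested in the normalized fit without n-HA replicate 1, 3 were higher and 6 lower with n-HA (median -0.12). Myl7 (-0.86), Tnnc1 (-0.92) and Tbx5 (-1.37) were among the lower. The part of these markers was not tested.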

How the data were processed

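Total RNA of HL-1 cells was labelled and hybridised to an Illumina MouseRef-8 beadchip. The authors deposited bead intensity per probe before normalization, made with BeadStudio 3.3 per the submitters' processing notes. Beside it the authors deposited a detection p-value, the count of beads (median 41 on every array) and the bead standard error, which is another measure of spread within an array. The authors' second table holds intensity normalized by cubic spline, with 38.1% of values below 0, and served as an alternative. The BeadStudio test of the methods was not rerun.

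Intensities were background-corrected with neqc of limma 3.58.1 in R 4.3.3 (negative controls inferred from detection p-values, offset of 16), quantile normalized and converted to log2. A probe was tested when it was detected (p under 0.05) on 2 or more of the 6 arrays. All 3 groups entered a single fit (lmFit, eBayes, two-sided, with 3 residual degrees of freedom and a prior of 3.145), with Benjamini-Hochberg adjustment over 6194 probes and a threshold of 0.05. The scripts were tested on simulated data. The number of arrays limits the precision. Genes were named from the platform annotation (23978 of 25697 probes with 1 symbol). Values are printed for Slc6a6, for transporters detected on all 6 arrays, for those past the threshold with all arrays or without n-HA replicate 1, and for the 5 largest differences per comparison. The values of Slc1a4, Slc3a2, Slc7a6os, Slc38a2 and Slc38a9 were added after they had been seen. The members and gene lists were chosen with earlier results of these data known. Alternatives were other background corrections, offsets, normalizations, filters, groups, weights and priors, and leaving out each array.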

Additional observations from a re-analysis of the deposited data

How the results depend on the processing

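The count of transporter probes past the threshold, 0 in each comparison, stayed 0 with the authors' normalized values, with an offset of 50, without background correction, with any detection filter, array weights and a trended robust prior. For o-HA against untreated it was 1 with only these 2 groups, and 0 to 1 when each array was left out, with 1 (Slc6a6) without n-HA replicate 1 or without n-HA replicate 2. For n-HA against untreated it was 1 with no normalization (Slc38a3, lower) and 0 to 7 when each array was left out, with 6 of 19 without n-HA replicate 1 (17.1% of all probes) and 7 of 19 without n-HA replicate 2 (54.1% of all probes). For o-HA against n-HA it was 1 with no normalization and 0 to 7 when each array was left out, with 2 of 19 without n-HA replicate 1 (9.18% of all probes) and 7 of 19 without n-HA replicate 2 (51.1% of all probes). With only the o-HA and untreated groups 18 transporter probes were tested, and 4.05% of all probes passed. With no normalization 23.8% of all probes passed for n-HA against untreated and 19.3% for o-HA against n-HA. The cause of these changes in the count was not tested. The fit that left out an n-HA array had a single array of that group, assumed to vary like the others.

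Settings chosen after seeing the data left out n-HA replicate 1 and changed the scaling as well. For n-HA against untreated 39.1% of all probes passed with no normalization and 11.7% with the authors' values. With no background correction 18.2% passed, and with an offset of 50 18.5%. In the same order the shares were 41.4%, 5.72%, 7.33% and 8.43% for o-HA against n-HA. For o-HA against untreated they were 0.0509%, 0%, 3.14% and 3.44%. The count for o-HA against untreated was then 1 with no background correction, 1 with an offset of 50, and 0 with no normalization and with the authors' values. For n-HA against untreated it was 1 with no normalization, 4 with the authors' values, 5 with no background correction and 6 with an offset of 50, and for o-HA against n-HA it was 2, 1, 2 and 3 in the same order. Slc7a5 reversed in o-HA against n-HA, at 0.95 with an adjusted p of 0.0205 without normalization, against -0.68 with all 6 arrays normalized; in that setting the median of all probes was 0.67, and 41.4% of all probes passed as higher and 0% as lower. Of the 12 named probes, 4 changed sign in some setting for o-HA against untreated, 9 for n-HA against untreated and 10 for o-HA against n-HA.

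The labels do not say whether same-numbered arrays belong together, and the main fit did not pair them. Deviations of same-numbered arrays correlated at -0.114 for o-HA and untreated, 0.153 for n-HA and untreated and -0.045 for o-HA and n-HA. These correlations cannot decide whether the arrays were paired. With the replicate block the count was 0 in each comparison. Of the 20 tested transporter probes, 14 had a mean intensity under 100 (70%), against 57.1% of all tested probes. The part of this low signal in the results was not tested.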
